A study of Mus musculus with 15 samples.

Results

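Pancreatic ductal adenocarcinoma (PDAC) tumours that served as untreated controls at a late point of a myofibroblast ablation study were set against those that served as untreated controls at its early point. Expression was read from 6 mouse arrays, 3 labelled late ablation control and 3 labelled early ablation control. The series holds 15 arrays in 5 groups of 3: early control, early ablation, late control, late ablation, and late ablation with an antibody against CTLA4. The members described here are the features detected, at an Illumina detection p below 0.05, on at least 3 of those 6 control arrays. They number 12895 of the 29453 distinct features of the 12-array table, 10481 of them with a gene symbol, and 10415 were detected on all 6 control arrays.

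Both control groups carried the αSMA-tk transgene and neither received ganciclovir (GCV). Both are labelled as PDAC tumour from pancreas from mice whose background mixed the strains C57BL/6 and Balb/c. In mice that carry this transgene a viral thymidine kinase is placed under the promoter of Acta2, the smooth muscle actin of myofibroblasts, so that ganciclovir kills dividing cells that use that promoter. Without the drug this killing is not set off, so the comparison concerns untreated tumours labelled as controls of the early and the late point. The labels give neither the age of the mice, nor the stage of the tumours, nor the alleles that drove them, and they do not say whether the 3 arrays of a group came from separate animals, so p-values measure the spread between these samples. Values are log2 normalized signals, and every difference is late control minus early control unless stated.

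As background, PDAC grows from duct-like epithelium inside a dense stroma of fibroblasts, collagen and vessels, and its lesions often take on the mucins of stomach. The bulk RNA of such a tumour also holds acinar and islet cells of the remaining pancreas and a varying share of immune cells. Dividing cells switch on replication genes first and mitosis genes afterwards, the latter largely through promoter elements known as CHR and CCAAT boxes. Interferon response genes carry a different element, known as the interferon-stimulated response element, and glucocorticoid response genes rise with corticosterone, the stress and day-rhythm hormone of mice.

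No single feature separated the groups after correction over all 12895 features, and the description below rests on differences that did not pass that threshold. The limma test with Benjamini-Hochberg adjustment called 0 features (0%) at an adjusted p under 0.05, and the smallest adjusted p was 0.160. At an unadjusted p under 0.05 it found 1153 features, 8.94% of those tested, of which 576 (4.47%) were higher and 577 (4.47%) lower in late controls. Among the features detected on all 6 arrays, 2.91% were higher and 3.06% lower at that level. The 3 late arrays lay wholly above the 3 early arrays for 980 features (7.6%) and wholly below them for 1128 (8.75%), 2108 in all (16.3%). For features detected on all 6 arrays these shares were 6.32% and 7.85%. Differences were above 0 for 47.8% of features and below 0 for 52.2%, or 47.7% and 52.3% of those detected on all 6 arrays, with a median of -0.02. With each array scaled to its median in place of quantile normalization, the median difference moved to 0.15 and 89.0% of the features at an unadjusted p under 0.05 were higher, so differences are best read against that shift. Without early control 3 the count at an unadjusted p under 0.05 was 628, and without late control 1 it was 646.

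The 2 groups were not equally tight. Rank correlations between arrays over the features tested ran from 0.964 to 0.973 among early controls, from 0.906 to 0.956 among late controls and from 0.915 to 0.966 between the groups. Between 38.5% and 39.4% of probes were detected on the early controls, and between 39.7% and 43.2% on the late controls. Ductal and epithelial markers matched the label: 11 of the 12 measured were detected on all 6 arrays. Krt19, the keratin of duct cells, read 13.45, 13.65 and 14 on the early and 13.32, 13.48 and 13.44 on the late arrays. The 3 early controls stood apart from the 9 other arrays of the table, ablated tumours included, for 540 features (4.19%), against 49 (0.38%) for the 3 late controls, 145 (1.12%) for the early ablation arrays and 104 (0.807%) for the late ablation arrays. Features had to be detected on control arrays, so those bright on ablation arrays alone were left out. The ablation counts are therefore held down and are not on equal terms with those of the controls. Of the 1153 features at an unadjusted p under 0.05, 373 (32.4%) were ones for which the early controls lay outside the range of all 9 others. For those features the difference set the early controls apart from early ablation arrays as well, and a difference between early and late tumours cannot be told apart from one particular to the 3 early control samples.

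**Figure D1:**
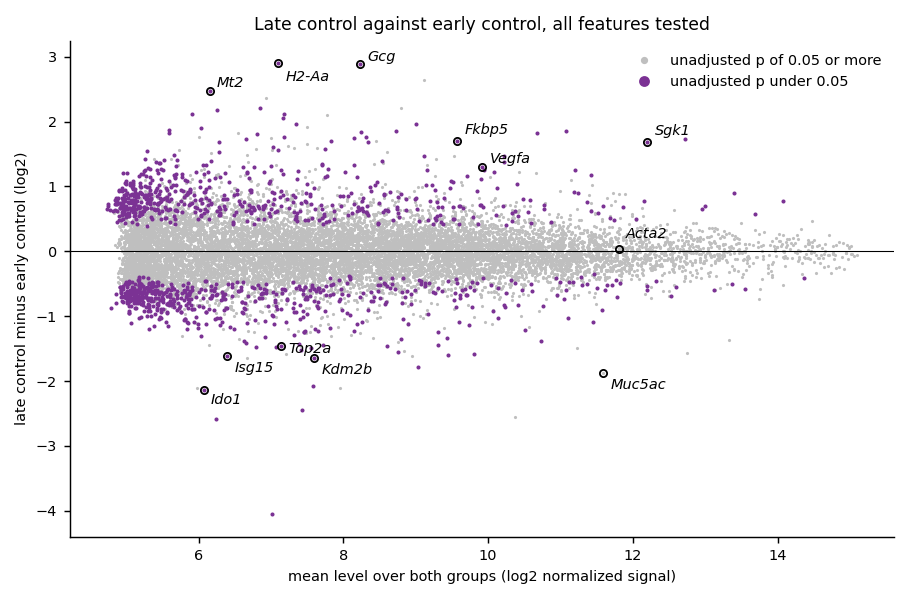
Late minus early control difference (log2, vertical axis) against the mean level of both groups (log2 normalized signal, horizontal axis) for the 12895 features tested; purple points have an unadjusted p under 0.05. Circled genes are named in the text, with Sgk1 at 1.69 near the bright end, Kdm2b at -1.64 and Acta2 near 0.

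Most of the single genes with the smallest p were near the detection limit. A gene undetected on a whole group passed the filter only because all 3 arrays of the other group detected it. Its direction was thus largely set by the filter, and its p-value is no separate support. Of 220 features undetected on every early array, 166 were higher at an unadjusted p under 0.05. Of 70 undetected on every late array, 65 were lower at that p. Ccnf, Kif11, Col11a1 and Met, described below, are such genes too. The smallest p belonged to Kdm2b, which encodes a histone demethylase and a partner of Polycomb complexes. It read 8.85, 8.41 and 7.99 on the early controls and 6.55, 6.81 and 6.97 on the late controls, a 3.12-fold lower mean (log2 difference -1.64 ± 0.23 SE, limma adjusted p = 0.160). All 3 late arrays were below all 3 early arrays, and so were the early ablation arrays at 6.77, 6.51 and 6.74. The result rests on 1 of the 7 probes for Kdm2b, since the other 6 were detected on at most 2 of the 6 control arrays. Among the 12 genes with the smallest p in the higher direction, Sgk1 is described with the glucocorticoid genes. Milr1, an inhibitory receptor of mast cells, was undetected on all 3 early arrays and read 5.99, 5.76 and 5.84 on the late arrays, at least 1.66-fold higher (limma adjusted p = 0.250). Lama2, a laminin chain of basement membrane, was also undetected on the early arrays and read 6.31, 5.47 and 6.16 on the late arrays, at least 1.8-fold higher. The same held for Palm3, Sema4d, Plekhg4, Olfr536 and Zswim5, with bounds from 1.17-fold to 1.55-fold. Nop9, a ribosome assembly factor, read 5.96, 5.72 and 5.97 on the early and 7.09, 7.0 and 6.77 on the late arrays. Cd99, a cell surface adhesion protein, and Cic, a transcriptional repressor downstream of receptor tyrosine kinases, were higher by 0.85 and 0.87, and Snhg11, a noncoding RNA host gene, by 1.26. In the lower direction the other 11 genes were Ddx58 and Ccnf, described with their groups, and C530044C16Rik, Irak1bp1, Pdhx, Rgmb, Speer8-ps1, Spdye4b, Ercc6l, Ube2v2 and Omt2b, 9 dim genes with early means below 6 and differences between -1.01 and -0.79. Of these 9, 8 were undetected on every late array and Irak1bp1 was detected on 1.

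Cell division genes were lower in late control tumours. Of the 30 listed mitosis genes, 18 were tested and 15 were detected on all 6 control arrays; 14 of those 15 were lower in late controls, 5 of them at an unadjusted p under 0.05 and 6 without overlap of the groups. The median difference of the 15 was -0.92, against -0.02 for all features detected on all 6 arrays. None passed the adjusted threshold. Over all features detected on all 6 arrays, 52.3% were lower, 3.06% at an unadjusted p under 0.05 and 7.85% without overlap.

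Top2a, the topoisomerase that untangles chromosomes before division, read 7.70, 7.38 and 8.52 on the early and 6.14, 5.96 and 7.13 on the late arrays. Every late array was below every early array, a 2.75-fold lower mean (log2 difference -1.46 ± 0.54 SE, limma adjusted p = 0.453). Aurka, a kinase of the spindle poles, read 7.21, 7.12 and 8.19 on the early and 6.5, 6.34 and 6.74 on the late arrays, 1.97-fold lower. Ccnf, the cyclin F subunit of a ubiquitin ligase, read 5.2, 5.19 and 5.30 on the early arrays and was undetected on all 3 late arrays, at least 1.16-fold lower (limma adjusted p = 0.250). Kif11, the motor that separates spindle poles, was likewise detected on all early arrays, at 5.23, 5.22 and 5.52, and on no late array, at least 1.23-fold lower. Ccnf and Kif11 are thus outside the 15 genes counted above. Cenpa, the histone of centromeres, read 9.99, 9.73 and 10.93 on the early and 10.02, 8.85 and 9.98 on the late arrays, which overlap. Cdk1, the kinase that starts mitosis, Nusap1 and Bub1b, which act on the spindle and its checkpoint and are named here after their values were seen, were lower by 1.19, 1.23 and 0.92, with no overlap of the groups. The other detected probe of Bub1b differed by only -0.10. Kif23 was the single member with a higher late mean, at 0.39 ± 0.80 SE. Its late arrays spread from 7.65 to 11.47, and its 3 other detected probes were lower in late controls, by 1.11, 0.88 and 0.10.

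Replication genes were lower as well. Of 27 listed, 24 were tested and 20 detected on all 6 control arrays. Of the 20, 19 were lower, 7 at an unadjusted p under 0.05 and 11 without overlap, with a median of -0.62. Over all features so detected, the shares lower at that p and without overlap were 3.06% and 7.85%. Mcm4, a subunit of the helicase that licenses replication origins, read 10.55, 10.47 and 10.96 on the early and 9.62, 9.64 and 10.15 on the late arrays, 1.81-fold lower with no overlap (log2 difference -0.85 ± 0.24 SE, limma adjusted p = 0.329). Mcm3, of the same helicase, read 6.22, 6.39 and 7.15 on the early and 4.81, 5.52 and 5.87 on the late arrays, 2.27-fold lower, and was undetected on 1 late array. Mcm10, which activates it, read 7.76, 7.48 and 8.63 on the early and 6.30, 6.55 and 7.18 on the late arrays, 2.43-fold lower, and its second detected probe was lower by 1.09. Gins1, a further helicase partner, read 6.77, 7.20 and 7.14 on the early and 5.97, 6.30 and 6.46 on the late arrays. Mcm6 was lower by 0.62 and its arrays overlap. Rfc4, a clamp loader subunit, was the one member of the 20 with a higher late mean, at 0.41 ± 0.25 SE. Late control 3 was the highest of the late arrays for both lists and early control 3 the highest of the early arrays, and without early control 3 the medians over the members tested moved from -0.89 to -0.62 for mitosis and from -0.61 to -0.48 for replication. The summed level of the 12 epithelial and ductal markers ran from 16.35 to 16.59 on early and from 16.15 to 16.56 on late arrays, which overlap. In bulk tumour RNA fewer cells of a type, fewer dividing cells and less RNA per cell cannot be told apart.

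The mitosis genes and the interferon genes described next hold different promoter elements, and the windows of 3 members of each are shown, those with the smallest unadjusted p that hold the element of their list. Both lists were taken for this after their values were seen. Windows run from 250 bases before to 50 after the start of the gene in the direction of transcription, from RefSeq on build GRCm38.p6. Capitals mark TTTGAA, the core of the CHR, and CCAAT, on either strand; these motifs do not overlap in the windows shown. The Ccnf window is chr17:24251360-24251659 on the minus strand, that of Kif11 is chr19:37376132-37376431 on the plus strand, and that of Aurka is chr2:172370521-172370820 on the minus strand.
Ccnf: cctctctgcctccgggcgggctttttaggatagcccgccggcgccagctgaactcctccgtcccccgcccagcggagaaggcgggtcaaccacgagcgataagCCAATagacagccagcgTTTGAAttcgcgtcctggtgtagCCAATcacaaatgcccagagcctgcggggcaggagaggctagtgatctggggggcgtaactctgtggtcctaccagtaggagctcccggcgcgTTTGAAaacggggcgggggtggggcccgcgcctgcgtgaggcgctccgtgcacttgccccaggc
Kif11: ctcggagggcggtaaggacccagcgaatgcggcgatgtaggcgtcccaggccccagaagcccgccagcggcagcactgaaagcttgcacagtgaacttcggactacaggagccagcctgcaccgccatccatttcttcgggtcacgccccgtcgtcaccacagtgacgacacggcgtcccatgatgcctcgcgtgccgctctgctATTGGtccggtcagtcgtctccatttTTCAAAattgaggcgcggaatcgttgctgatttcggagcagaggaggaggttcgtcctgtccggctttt
Aurka: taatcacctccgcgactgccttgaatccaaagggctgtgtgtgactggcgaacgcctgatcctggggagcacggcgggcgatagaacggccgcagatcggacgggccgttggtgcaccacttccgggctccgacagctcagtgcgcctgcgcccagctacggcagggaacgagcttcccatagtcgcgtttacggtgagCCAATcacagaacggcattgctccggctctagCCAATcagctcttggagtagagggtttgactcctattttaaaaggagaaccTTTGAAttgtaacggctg
Windows were found for 15 of the 18 mitosis genes tested. TTTGAA was present in 12 of the 15 (80%) against 20.2% of all 27025 genes with a window, and CCAAT in 11 (73.3%) against 41.1%. Both were present in 11 (73.3%) against 7.97% of all genes. Relative to the gene start, TTTGAA begins at -130 and -14 in Ccnf, at -19 on the opposite strand in Kif11 and at 33 in Aurka. The match describes letters in a window and does not show that a factor was bound.

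**Figure D2:**
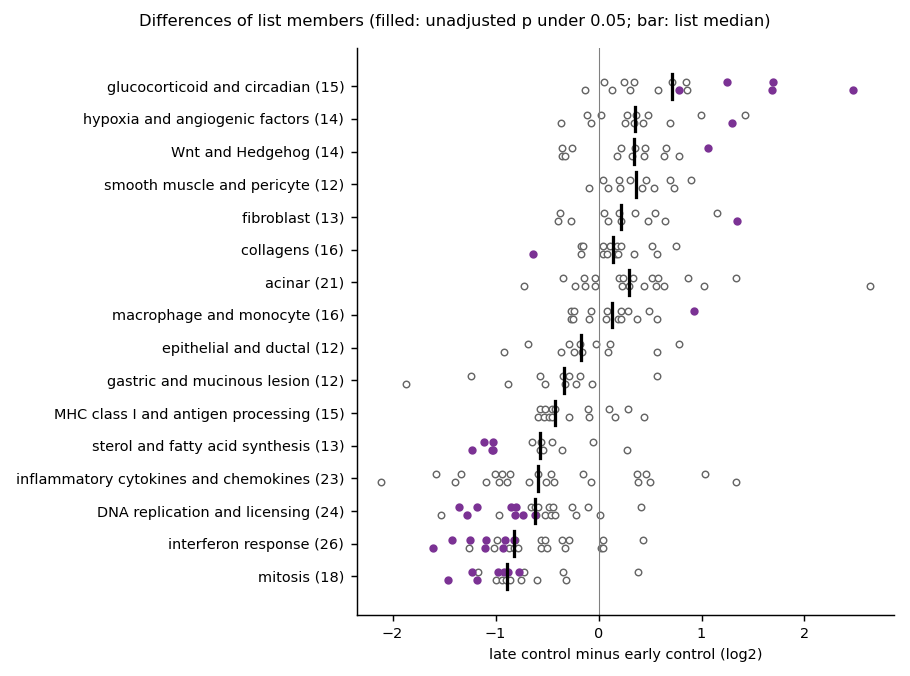
Late minus early control difference (log2, horizontal axis) of each member tested in 16 lists, with the number of members in brackets; filled points have an unadjusted p under 0.05 and black bars are list medians. Mitosis, interferon and replication members lie mostly left of 0 and glucocorticoid members mostly right of it, while collagen and acinar members scatter around 0.

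Interferon response genes were lower in late controls, and here the early controls themselves differed. Of the 40 listed genes, 26 were tested and 24 detected on all 6 control arrays. Of the 24, 21 were lower, 7 at an unadjusted p under 0.05 and 5 without overlap, with a median of -0.82. Over all features so detected, the shares lower at that p and without overlap were 3.06% and 7.85%. Ddx58, the gene of the RNA sensor RIG-I, read 6.26, 6.46 and 6.75 on the early and 5.23, 5.2 and 5.76 on the late arrays. All late arrays were below all early arrays, a 2.13-fold lower mean (log2 difference -1.09 ± 0.22 SE, limma adjusted p = 0.250). Isg15, a ubiquitin-like protein induced by interferon, read 6.05, 7.42 and 8.11 on the early and 5.49, 5.39 and 5.89 on the late arrays, 3.04-fold lower (log2 difference -1.61 ± 0.58 SE, limma adjusted p = 0.435). Igtp, an immunity-related GTPase, read 6.96, 8.67 and 8.66 on the early and 6.55, 6.83 and 6.63 on the late arrays, 2.69-fold lower. Dhx58, the RIG-I relative LGP2, was lower by 0.91 with no overlap, and its second detected probe by 0.94. Irf1, an interferon regulatory factor and one of the brightest members, was lower by 0.29 with overlapping arrays. Of the 24, 3 had higher late means: Ifi27l2a at 0.43, Zbp1 at 0.04 and Irgm1 at 0.02, each within 1 SE of 0. The other detected probe of Irgm1 differed by -0.46. Early control 1 was the lowest early array for Isg15 and Igtp. The list level, the median deviation of its members from their control mean, was -0.16 on early control 1, 0.55 on early control 2 and 0.89 on early control 3, and it was -0.57, -0.31 and -0.23 on the late controls. Without early control 3 the median over the 26 members moved from -0.82 to -0.45.

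In the windows of the interferon genes the capitals mark GAAA, then any 2 bases, then GAAA, on either strand, the spacing of the interferon-stimulated response element. The Ddx58 window is chr4:40239776-40240075 on the minus strand, that of Igtp is chr11:58199306-58199605 on the plus strand, and that of Isg15 is chr4:156200769-156201068 on the minus strand, where 3 matches overlap.
Ddx58: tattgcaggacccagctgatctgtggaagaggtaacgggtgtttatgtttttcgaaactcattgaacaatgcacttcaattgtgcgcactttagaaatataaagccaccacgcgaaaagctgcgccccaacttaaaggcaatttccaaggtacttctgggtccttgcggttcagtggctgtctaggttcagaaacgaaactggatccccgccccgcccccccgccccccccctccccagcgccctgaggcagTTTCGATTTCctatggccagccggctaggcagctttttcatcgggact
Igtp: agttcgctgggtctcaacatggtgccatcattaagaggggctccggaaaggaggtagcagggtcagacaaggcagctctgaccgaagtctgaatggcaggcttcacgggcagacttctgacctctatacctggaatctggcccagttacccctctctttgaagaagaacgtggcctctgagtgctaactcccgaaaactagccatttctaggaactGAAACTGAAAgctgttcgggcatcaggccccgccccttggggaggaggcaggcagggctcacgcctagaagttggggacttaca
Isg15: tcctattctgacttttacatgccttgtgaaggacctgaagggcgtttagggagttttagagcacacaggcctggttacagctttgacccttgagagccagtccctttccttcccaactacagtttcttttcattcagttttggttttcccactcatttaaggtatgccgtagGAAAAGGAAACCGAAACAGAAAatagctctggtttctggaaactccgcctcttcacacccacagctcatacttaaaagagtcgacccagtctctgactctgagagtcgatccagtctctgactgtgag
The motif was present in 11 of the 20 interferon genes with a window (55%) against 3.99% of all genes with one. Tap1 and Irf1 are among the 9 members with no match, and no match says only that these letters are not in this window. The lists were drawn from knowledge of interferon and cell cycle genes, so this share describes the lists and not the difference between the groups.

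Antigen presentation genes were split. Of 15 class I and antigen processing genes tested, 14 were detected on all 6 control arrays and 10 of those were lower, none at an unadjusted p under 0.05, with a median of -0.36. H2-D1, a classical class I heavy chain and one of the brightest members, read 13, 13.72 and 13.75 on the early and 12.68, 12.98 and 13.12 on the late arrays, 1.48-fold lower with 1 late array above the lowest early one (log2 difference -0.57 ± 0.27 SE, limma adjusted p = 0.587). Its 2 other detected probes were lower by 0.46 and 0.39. B2m, the shared light chain, read 12.13, 12.85 and 12.81 on the early and 12.41, 12.60 and 12.47 on the late arrays, a difference of -0.10. Psmb10, an immunoproteasome subunit, was lower by 0.42, Tap1, a peptide transporter, by 0.52, and Nlrc5, the transactivator of class I genes, by 0.53. Of 8 class II genes tested, 6 were detected on all 6 control arrays, 2 of them higher and 4 lower, with a median of -0.15. Ciita, the master regulator, was lower by 1.04, with 2 of 3 late arrays undetected, and H2-Aa, an alpha chain, was higher by 2.90. For H2-Ab1, a beta chain, the probes disagreed: the brightest was higher by 1.06, and 0.45 without late control 2, and the 2 other detected probes differed by -0.53 and -0.40. Cd74, the invariant chain, differed by -0.08.

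A few immune genes were bright on 2 of the 3 early controls alone. H2-Ea, the class II alpha chain that is silent in C57BL/6 mice and active in Balb/c mice, read 10.35 and 9.92 on early controls 2 and 3, 5.09 on early control 1 and between 4.42 and 4.87 on the 9 other arrays. It was detected on too few arrays to be tested. H2-Q6, a nonclassical class I gene named here after its values were seen, read 5.15, 8.69 and 8.76 on the early and 4.94, 4.75 and 5.16 on the late arrays. Ido1, the tryptophan-degrading enzyme that dampens T cells, read 4.92, 8.64 and 7.85 on the early and 5.40, 4.83 and 4.78 on the late arrays, with the early controls overlapping the late ones. H2-Aa ran the other way, at 7.38, 5.15 and 4.42 on the early and 7.79, 9.80 and 8.06 on the late arrays. Xist, the RNA of the inactive X chromosome, was bright on early control 1 and late control 3 and low on the other 4 controls, and Eif2s3y, a Y chromosome gene, was low on those 2 and bright on the other 4. Each group thus held 1 female and 2 male samples by these genes. The same pair of early controls was both male and bright for H2-Ea, and the part of sex or of strain alleles in these differences was not tested.

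**Figure D3:**
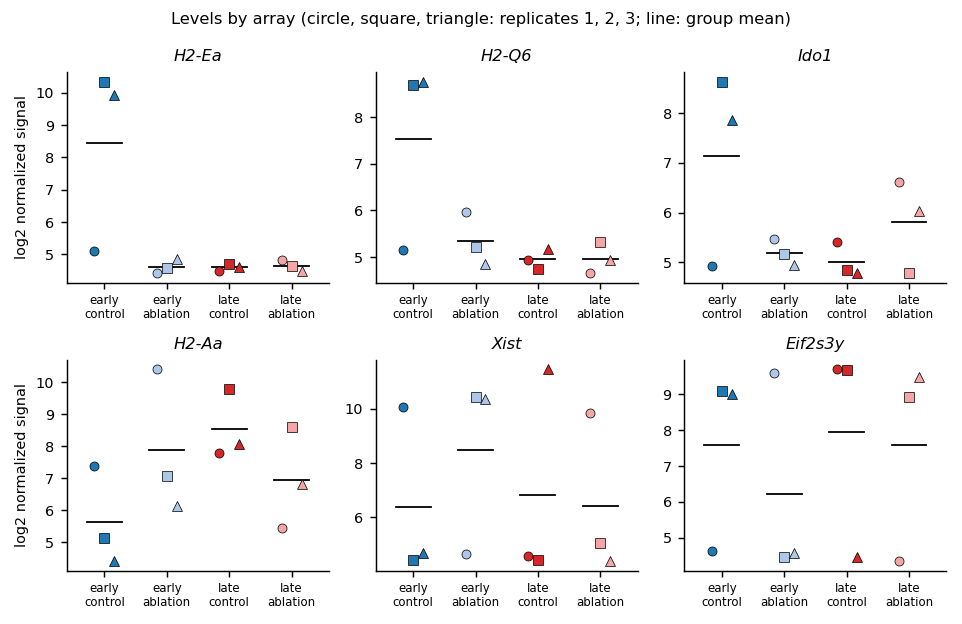
Log2 normalized signal (vertical axis) of 6 genes on the 12 arrays by group (horizontal axis), with circles, squares and triangles for replicates 1, 2 and 3 and a line for the group mean. H2-Ea and H2-Q6 are bright on early controls 2 and 3 alone, and Xist and Eif2s3y are bright on opposite arrays.

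Few checkpoint and T cell genes were detected. Of 13 regulatory T cell and checkpoint genes, 6 were tested and 3 detected on all 6 control arrays. Tnfrsf18, the costimulatory receptor GITR, read 6.41, 6.73 and 6.47 on the early and 5.93, 6.06 and 5.47 on the late arrays, 1.65-fold lower with no overlap (log2 difference -0.72 ± 0.21 SE, limma adjusted p = 0.361), and its second detected probe was lower by 0.68. Cd274, the gene of PD-L1, read 8.62, 7.44 and 6.5 on the early and 6.76, 6.80 and 6.23 on the late arrays, which overlap. Foxp3, the transcription factor of regulatory T cells, read 9.33, 9.31 and 9.20 on the early and 8.83, 9.41 and 9.10 on the late arrays, a difference of -0.16 ± 0.19 SE. The other detected probe of Foxp3 was far dimmer, with means of 5.32 on the early and 5.17 on the late arrays, so the probes disagree on its level. Of 16 T cell genes only Cd247, Cd8b1 and Zap70 passed the detection filter, and Cd8a was undetected on every control array. Cd247, the zeta chain of the T cell receptor complex, read 5.72, 5.60 and 5.72 on the early and 5.19, 4.94 and 5.09 on the late arrays. Of 23 inflammatory cytokines and chemokines tested, 15 were detected on all 6 arrays and 10 of those were lower, none at an unadjusted p under 0.05. Tnf was lower by 1.10 and Il33, an alarmin of epithelium, by 1.39, both with no overlap, the latter by 0.83 without early control 3, while Il1a was lower by 0.94 with overlap and Il18 was higher by 0.50. Among macrophage genes, 9 of the 13 detected on all 6 arrays were higher, and Mpeg1, a perforin-like macrophage protein, read 9.85, 9.56 and 8.74 on the early and 9.90, 11.06 and 9.97 on the late arrays.

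Glucocorticoid and circadian genes were higher in late controls. Of 16 listed, 15 were tested and 12 detected on all 6 control arrays. Of the 12, 11 were higher, 4 at an unadjusted p under 0.05 and 4 without overlap, with a median of 0.74. Over all features so detected, the shares higher at that p and without overlap were 2.91% and 6.32%. Sgk1, the serum- and glucocorticoid-induced kinase, read 11.60, 10.97 and 11.49 on the early and 13.29, 12.76 and 13.08 on the late arrays. All late arrays were above all early arrays, a 3.22-fold higher mean (log2 difference 1.69 ± 0.34 SE, limma adjusted p = 0.250). Fkbp5, a co-chaperone that dampens the glucocorticoid receptor, read 9.84, 8.18 and 8.15 on the early and 10.52, 10.33 and 10.40 on the late arrays, 3.24-fold higher with no overlap (log2 difference 1.69 ± 0.38 SE, limma adjusted p = 0.260). Tsc22d3, the glucocorticoid-induced leucine zipper protein, read 11.40, 9.96 and 10.39 on the early and 11.58, 11.66 and 12.25 on the late arrays, 2.37-fold higher, and its 2 other detected probes were higher by 0.34 and 1.22. Mt2, a metal-binding protein, was detected on 1 early array and read 8.69, 5.88 and 7.60 on the late arrays against 5.51, 4.63 and 4.62. Mt1, its relative, read 14.05, 13.29 and 13.69 on the early and 14.99, 13.68 and 14.71 on the late arrays, 1.72-fold higher with overlap. Per1, a repressor of the day clock named here after its values were seen, was higher by 0.86 with no overlap, and its second detected probe by 0.91. Without early control 2 the difference of Per1 was 0.35. Cdkn1a, the p53 target p21 and one of the brightest members, was higher by 0.34 with overlap. Nr1d2, a clock repressor, was the one member of the 12 with a lower late mean, at -0.13 ± 0.33 SE.

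For 3 of the 15 members tested, Sgk1, Fkbp5 and Mt2, the early controls were below all 9 other arrays, and for the other 12 they were not. Sgk1 read 13.38, 12.80 and 12.88 on the early ablation arrays and 13.74, 12.28 and 12.85 on the late ablation arrays. Fkbp5 read 10.34, 10.68 and 10.46 on the early ablation arrays. Early control 1 was the highest early array for Fkbp5, Mt2 and Tsc22d3, and without early control 2 the median over the 15 members tested moved from 0.71 to 0.42.

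**Figure D4:**
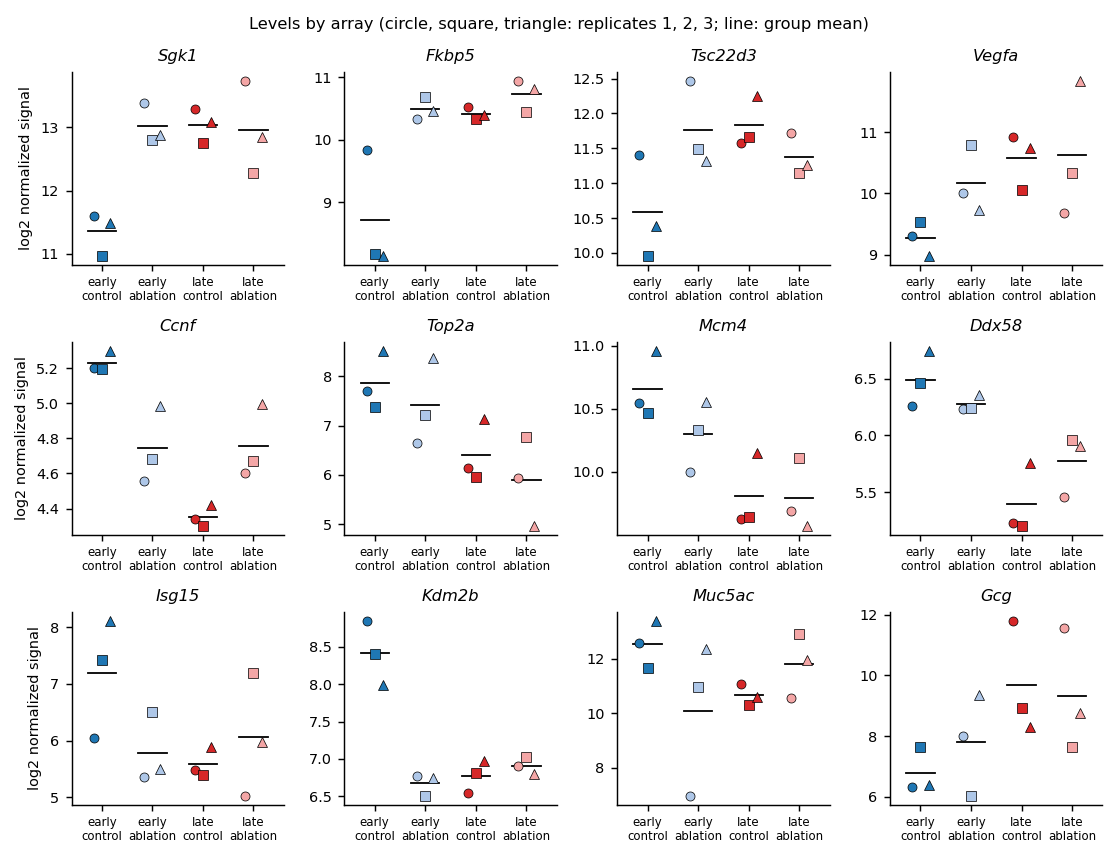
Log2 normalized signal (vertical axis, not starting at 0) of 12 genes on the 12 arrays by group (horizontal axis), with circles, squares and triangles for replicates 1, 2 and 3 and a line for the group mean. For Sgk1, Fkbp5, Vegfa, Ccnf and Kdm2b the early controls lie apart from the 9 other arrays. Gcg is higher on every late control than on any early control, with a wide spread among the late controls.

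Sterol and fatty acid synthesis genes were lower in late controls. Of 20 listed, 13 were tested and 11 detected on all 6 control arrays. Of the 11, 10 were lower, 4 at an unadjusted p under 0.05 and 3 without overlap, with a median of -0.56. Over all features so detected, the shares lower at that p and without overlap were 3.06% and 7.85%. Sqle, the squalene epoxidase, read 10.50, 10.24 and 11.23 on the early and 10.03, 9.31 and 9.55 on the late arrays, 2.03-fold lower with no overlap (log2 difference -1.02 ± 0.39 SE, limma adjusted p = 0.470), and its second detected probe was lower by 1.34. Elovl6, a fatty acid elongase, read 7.47, 8.13 and 8.64 on the early and 6.88, 7.39 and 6.27 on the late arrays, 2.35-fold lower with no overlap. Fdps, which makes farnesyl diphosphate, read 11.52, 11.03 and 12.28 on the early and 11.08, 10.04 and 10.66 on the late arrays, 2.03-fold lower with overlap. Srebf1, the transcription factor of lipid synthesis, was lower by 1.04 and undetected on 1 late array. Acly, which supplies acetyl-CoA, differed by -0.05, and Scd1, a fatty acid desaturase, was the one member of the 11 with a higher late mean, at 0.27 ± 0.52 SE. The median over the 13 members tested was -0.57, and it was -0.89 without early control 2, -0.43 without early control 3 and -0.35 with median scaling.

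**Figure D5:**
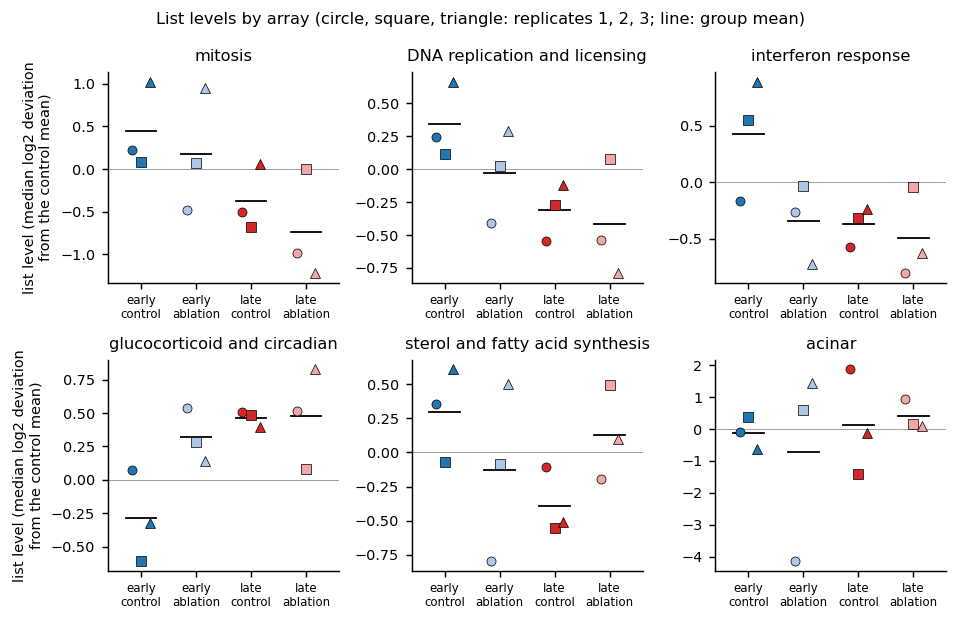
List level (vertical axis, the median over members of the log2 deviation from their mean over the 6 control arrays) on the 12 arrays by group (horizontal axis) for 6 lists, with circles, squares and triangles for replicates 1, 2 and 3 and a line for the group mean. Levels of the early and late controls overlap for the acinar list only, which spreads from -1.40 to 1.87 among the late controls. The gaps are narrow for some lists: the nearest early and late levels are 0.09 and 0.06 for mitosis, -0.16 and -0.23 for interferon and -0.07 and -0.11 for sterol.

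Epithelial programmes differed in part. Of 12 gastric and mucinous lesion genes tested, 9 were detected on all 6 control arrays and 8 of those were lower, 3 without overlap. None had an unadjusted p under 0.05. Over all features detected on all 6 arrays, 52.3% were lower and 7.85% were lower without overlap. Muc5ac, the secreted gastric mucin of pancreatic lesions, read 12.55, 11.64 and 13.39 on the early and 11.06, 10.31 and 10.61 on the late arrays, 3.65-fold lower with no overlap (log2 difference -1.87 ± 1.09 SE, limma adjusted p = 0.657). Gkn1, a gastrokine of stomach mucosa, was lower by 0.52 and Tff2, a trefoil peptide, by 0.22, both without overlap, and Gcnt1 was the one gene of the 9 with a higher late mean, at 0.57 ± 0.42 SE, its other detected probe differing by -0.07. Of 8 squamous genes, 7 were detected on all 6 arrays and 6 of those were lower. Krt17, a keratin of basal and squamous cells, read 7.06, 7.11 and 7.08 on the early and 5.34, 6.66 and 5.68 on the late arrays, 2.28-fold lower (limma adjusted p = 0.504). Nccrp1, a gene of squamous epithelium, read 9.22, 8.88 and 10.23 on the early and 8.70, 8.13 and 8.21 on the late arrays. Of 6 tuft cell genes tested, 4 were detected on all 6 arrays, 3 of them lower and 1, Gnat3, higher by 0.26. Avil, Sh2d6 and Dclk1 were lower by 1.10, 1.35 and 1.15 and Alox5ap by 0.12, but late control 2 lay within the range of the early arrays for the first 3. Without late control 1 the difference of Dclk1 was -0.46. Of 9 intestinal and brush border genes detected on all 6 arrays, 6 were higher and 3 lower, with a median of 0.12. Among the lower ones, Vil1, the villin of brush borders, read 11.18, 11.31 and 10.88 on the early and 9.16, 10.48 and 10.09 on the late arrays. Tff3, an intestinal trefoil peptide, was higher by 1.43 with overlap. Msln, a surface protein of mesothelium and of PDAC cells, read 11.44, 10.87 and 11.41 on the early and 11.97, 11.84 and 12.02 on the late arrays, 1.63-fold higher with no overlap (limma adjusted p = 0.435). It was the 1 higher member of the 4 mesothelial genes tested. The 3 others, Upk3b, Upk1b and Krt19, were lower by 1.11, 0.60 and 0.29, all with overlap. Met, the receptor of hepatocyte growth factor, was undetected on the early arrays and read 5.48, 5.63 and 5.15 on the late arrays, at least 1.22-fold higher.

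Stromal genes did not separate the groups as a whole. Acta2 read 12.44, 11.47 and 11.44 on the early and 12.81, 10.34 and 12.32 on the late arrays, a difference of 0.04 ± 0.78 SE. Its 3 other detected probes differed by -0.02, 0.33 and 0.33. Of 9 smooth muscle and pericyte genes detected on all 6 arrays, 8 were higher, none at an unadjusted p under 0.05, and of 10 fibroblast genes 8 were higher. Pdgfra, the growth factor receptor of fibroblasts, read 7.21, 6.61 and 7.27 on the early and 9.66, 7.12 and 8.36 on the late arrays, 2.55-fold higher with overlap (log2 difference 1.35 ± 0.56 SE, limma adjusted p = 0.505). The difference of Pdgfra was 0.71 without late control 1 and 1.98 without late control 2. Col1a1, the main chain of fibrillar collagen, read 9.77, 8.62 and 8.37 on the early and 11.18, 7.22 and 9.92 on the late arrays, a difference of 0.52 ± 0.88 SE. The median of the 16 collagens tested was 0.14, and it was -0.30 without late control 1 and 0.70 without late control 2. The fibroblast median moved likewise from 0.21 to -0.04 and 0.70, and that of smooth muscle and pericyte genes from 0.37 to 0.11 and 0.81. Col11a1, a collagen of desmoplastic stroma, was detected on all early arrays, at 5.22, 5.46 and 5.22, and on no late array, at least 1.22-fold lower (limma adjusted p = 0.368). Twist1, a transcription factor of mesenchymal cells, read 5.72, 5.23 and 5.12 on the early and 6.68, 6.15 and 6.90 on the late arrays, 2.33-fold higher with no overlap and undetected on 1 early array (limma adjusted p = 0.286). Vegfa, the main growth factor of vessels, read 9.30, 9.53 and 8.98 on the early and 10.92, 10.06 and 10.74 on the late arrays. It was 2.46-fold higher with no overlap (log2 difference 1.30 ± 0.48 SE, limma adjusted p = 0.449), and its second detected probe was higher by 0.97. Of 13 hypoxia genes detected on all 6 arrays, 10 were higher, and Vegfa was the one at an unadjusted p under 0.05. Over all features so detected, 2.91% were higher at that p. Among endothelial genes 6 of 14 were higher and 8 lower, and Vwf, the clotting factor of vessel walls, was higher by 0.90.

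Pancreatic parenchyma varied mostly from array to array. All 21 acinar genes tested were detected on all 6 control arrays, and their summed level ran from 15.03 to 15.83 on early controls and from 14.56 to 16.99 on late controls. Prss2, a trypsinogen, read 9.95, 10.49 and 9.72 on the early and 10.92, 8.95 and 9.25 on the late arrays. The acinar median was 0.29, and -0.63 without late control 1. Gcg, the glucagon gene of islet alpha cells, read 6.33, 7.65 and 6.40 on the early and 11.81, 8.92 and 8.31 on the late arrays, 7.39-fold higher with no overlap (log2 difference 2.89 ± 1.13 SE, limma adjusted p = 0.485). Without late control 1 the difference of Gcg was 1.82. Ins2, the insulin gene of beta cells, read 6.56, 9.28 and 7.22 on the early and 11.59, 8.90 and 9.18 on the late arrays, with overlap, and Ppy and Sst, the other islet hormones measured, were higher by 1.59 and 1.04, also with overlap. The 3 other islet genes tested were lower with overlap, Chga and Chgb, granins of hormone granules, by 0.31 and 0.36 and Isl1, an islet transcription factor, by 0.24, so that 4 of the 7 were higher and 3 lower. The summed level of the 7 islet genes tested ran from 8.59 to 10.83 on early and from 10.36 to 12.87 on late controls. The part of islet or acinar content in other differences was not tested.

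Several lists had small median differences. Cytosolic ribosomal proteins, proteasome subunits, the mitochondrial respiratory chain, glycolysis and chromatin regulators had medians of 0.08, -0.05, -0.08, -0.07 and -0.05. Of 19 drug metabolism genes, all detected on all 6 arrays, Gclc, Aldh1a1 and Gsta3 were higher at an unadjusted p under 0.05 and none lower. Among all features detected on all 6 arrays, 2.91% were higher and 3.06% lower at that p. Gclc, the rate-limiting enzyme of glutathione synthesis, read 6.70, 6.67 and 6.64 on the early and 7.09, 8.07 and 7.63 on the late arrays. Besides Kdm2b, the chromatin regulators at an unadjusted p under 0.05 were Cbx5, lower by 0.56, and Kdm5b and Arid1a, higher by 0.44 and 0.46. The other detected probes of Kdm5b differed by 0.04 and 0.57. Of 15 chromatin regulators, all detected on all 6 arrays, 2 were thus higher and 2 lower at that p. For 2 genes the late arrays lay wholly above the early ones and for 2 wholly below. The shares over all features detected on all 6 arrays were 6.32% and 7.85%.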

How the data were processed

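RNA of mouse tumours was extracted with Trizol, made into biotinylated cRNA with an Ambion MessageAmp kit and hybridised to Illumina bead arrays, per the labels' protocols. The deposited table holds, per the file headers, a signal intensity and a detection p-value per probe for 12 arrays, not normalized. GenomeStudio is named in the submitters' processing notes, its version not given in the sources used here. The authors' deposited value table, in which each array is a straight-line function of its signal intensity with slope and offset not stated, served as an alternative. The number of arrays limits the precision.

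Signals were background-corrected by normexp with detection p-values (offset 16), quantile normalized and taken to log2 in limma 3.58.1 under R 4.3.3. Probes took symbols from the platform annotation: 34885 probes had 1 symbol, 18 several and 10378 none, and the brightest probe stood for a gene. Features detected at p under 0.05 on at least 3 of the 6 control arrays were kept. All 12 arrays entered the fit as group means, with a two-sided moderated test and Benjamini-Hochberg adjustment over all features kept. The procedure was tested on simulated data. Promoter windows were searched with Python 3.11.15. "At least" folds are set against the lowest signal detected on each array of the undetected group, or the probe's own signal where higher. A summed level is log2 of the summed signals of a list's members.

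Genes named are the 12 with the smallest p in each direction, 4 by p and 2 by brightness in each list, any member of lists with up to 12 tested, and a fixed set. Ifi27l2a, Zbp1, Rfc4, Scd1 and Nr1d2 were named after their values were seen, as exceptions to their lists. The members and lists were chosen with earlier results of these data known. Alternatives changed the normalization, background correction, detection filter, probe rule, arrays fitted, array weights and replicate block, or left out 1 control array.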

Additional observations from a re-analysis of the deposited data

How the results depend on the processing

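The count of features past the adjusted threshold was 0 in most alternatives, but 304 with array weights (192 higher, 112 lower) and 6 with the authors' deposited value table, Ccnf, Kdm2b and Plekhg4 among them. Leaving out 1 control array gave 0 to 2 such features. The count at an unadjusted p under 0.05 was 1153 and became 3678 with no detection filter, 639 with detection on all 6 control arrays and 2517 with array weights, and ran from 628 without early control 3 to 1309 without late control 2. Non-overlapping features numbered 6026 with no filter and 2664 to 3889 with 1 array left out. With the replicate number as a block, 1402 features had an unadjusted p under 0.05 and 0 passed the adjustment. Deviations of same-numbered early and late arrays correlated at 0.06, 0.10 and -0.05, and not every array correlated best with its own number, so the numbers were not taken as pairs. That check covered control arrays only. By rank, late control 1 correlated at 0.978 with late ablation 1, against 0.906 and 0.940 with late controls 2 and 3. The main fit took all arrays as independent, and the source of this likeness was not tested. A slide block was not run, since the file headers give no slide. Some named genes changed sign, most with a small difference, but Hba-a1 (0.82), Col1a1 (0.52), Smo (0.45), Ifi27l2a (0.43), Kif23 (0.39) and Eif2s3y (0.37) too. With median scaling Acly was 0.098, Alox5ap 0.037, Cd74 0.038, Foxp3 0.021, Nr1d2 0.073 and Zap70 0.0095. With array weights Eif2s3y was -2.4, Ifi27l2a -0.47 and Scd1 -0.037. With the mean of detected probes Irgm1 was -0.22, Smo -0.050 and Kif23 -0.43, and with the 6 control arrays alone Kif23 was -1.11. With 1 control array left out, differences that crossed 0 ran for Acly from -0.19 to 0.19, for Acta2 from -0.45 to 0.79, for Alox5ap from -0.42 to 0.18, for B2m from -0.34 to 0.022, for Cd74 from -0.69 to 0.37, for Chga from -0.69 to 0.25, for Chgb from -0.81 to 0.30, for Col1a1 from -0.34 to 1.63, for Eif2s3y from -1.11 to 2.12, for Gnat3 from -0.20 to 0.50, for Hba-a1 from -0.22 to 2.24, for Ifi27l2a from -0.086 to 1.06, for Irgm1 from -0.12 to 0.30, for Isl1 from -0.66 to 0.067, for Kif23 from -0.99 to 1.32, for Nr1d2 from -0.58 to 0.10, for Prss2 from -0.95 to 0.039, for Scd1 from -0.28 to 0.64, for Zap70 from -0.15 to 0.088 and for Zbp1 from -0.10 to 0.19. Of the 96 named genes with a difference of at least 0.5 in either direction, 32 moved by over 1.5 times without 1 control array, and Col1a1 and Hba-a1 were the 2 that turned. The causes were not tested.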

Other observations

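Developmental signalling genes gave few differences. Of the 12 Wnt and Hedgehog genes detected on all 6 control arrays, 8 were higher, 1 at an unadjusted p under 0.05 and 3 without overlap of the groups. Over all features detected on all 6 arrays, 47.7% were higher, 2.91% at that p and 6.32% without overlap. Axin2, a feedback target of Wnt signalling, read 5.57, 5.76 and 6.20 on the early and 7.07, 6.21 and 6.61 on the late arrays, with no overlap. Dkk3, a secreted member of the Dickkopf family, read 8.91, 8.87 and 9.16 on the early and 11.07, 9.09 and 9.98 on the late arrays, with overlap, and its difference of 1.06 was 0.55 without late control 1. For Smo, the signal transducer of Hedgehog, the probes disagreed: the brightest was higher by 0.45 with no overlap, the other detected probe differed by -0.54 and their mean by -0.050. Shh, its epithelial ligand, differed by -0.36 with overlap. Wnt4, a Wnt ligand outside the list and named after its values were seen, read 7.80, 8.31 and 7.98 on the early and between 9.52 and 10.46 on the late arrays. All its late arrays were above all early ones, a 3.90-fold higher mean (limma adjusted p = 0.266), and the early controls were below the ablation arrays as well.

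A few genes differed widely between arrays of 1 group. Within-group ranges over 3 log2 units were seen for 126 features (0.977%) among late controls and 50 (0.388%) among early controls. Ctsc, the lysosomal protease cathepsin C, read 5.27 on late control 1 and between 10.38 and 11.93 on the 5 other controls. Casp9, the initiator caspase of the mitochondrial death pathway, read 4.47, 4.56 and 5.14 on early controls 2 and 3 and late control 2, and 8.20, 9.72 and 9.47 on the other 3. Hba-a1, a haemoglobin chain of red blood cells, read 14.09, 9.84 and 9.75 on the early and 14.12, 10.09 and 11.93 on the late arrays. These 3 genes were named after their values were seen, and none separated the groups.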
